A study of Rattus norvegicus with 8 samples.

Results

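The genes described here encode the cytochrome P450 enzymes and 4 groups of conjugating or hydrolysing enzymes of drug and lipid metabolism. They were all probe sets whose only gene symbol in the platform's probe-to-gene table began with Cyp, Gst, Ugt, Sult or Ephx, without Cyp51, which belongs to sterol synthesis. This gave 81 genes on 141 probe sets, out of 4736 genes with such a single symbol and 8740 probe sets that were not controls. The Cyp genes made up 79 probe sets for 48 genes, the Gst genes 25 for 12, the Ugt genes 14 for 10, the Sult genes 18 for 9 and the Ephx genes 5 for 2.

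Cytochromes P450 insert an oxygen atom into drugs, steroids, fatty acids and sterols, taking electrons from the reductase Por. Glutathione S-transferases (Gst) couple glutathione to reactive molecules, UDP-glucuronosyltransferases (Ugt) add a sugar, sulfotransferases (Sult) add sulfate, and epoxide hydrolases (Ephx) open epoxides that P450s leave behind. The families are best known from liver. In brain some members act on neurosteroids, cholesterol products, arachidonic acid epoxides or myelin lipids, and Cyp2e1 is the liver P450 that oxidises ethanol and volatile anaesthetics.

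Total RNA of whole rat brain was measured on 8 short-oligonucleotide arrays, 1 per sample. There were 3 controls that breathed isoflurane, a volatile anaesthetic, for 3 min, 2 samples after 1 hr of 2% isoflurane and 3 samples after 2 hr of 2% isoflurane. All rats were intubated, the controls were perfused with cold saline straight after the 3 min, and the control is therefore itself a short anaesthesia. The labels give no strain, sex or age and name no animals, so a p-value here compares groups with the scatter among the samples alone, which may be partly technical. Precision is limited by how few arrays there are, and in whole brain fewer cells of a type and less RNA per cell cannot be told apart.

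The deposited intensities were used as they stood. All 7 neuron and all 5 oligodendrocyte markers measured lay above the floor on all 8 arrays, and 5 of 6 astrocyte markers did, against 64.4% of all probe sets. Their levels ran from dim, as for neuronal Camk2a (18.8 to 80.5), to bright, as for oligodendrocyte Mbp (1171.7 to 6219.5). This criterion alone hardly separates tissues. Of 8 hepatocyte markers 4 also lay above the floor on all 8 arrays: Apoc3 (69.7 to 193.4), Serpina1 (88.0 to 151.7), Apoa1 (25.3 to 55.6) and Fga (17.0 to 64.6). Among the rest, albumin (Alb) read between 4.3 and 56.3 and Tat between 3.0 and 17.0. Control replicate 3 and 1 hr replicate 1 stood apart. The neuron markers summed to 1401.1 on control replicate 3 against 2449.0 to 4278.5 on the other 7 arrays, and 1 hr replicate 1 had 85% of all probe sets above the floor against 77.8% to 81.2% elsewhere. Choroid plexus markers summed to 3785.4 on 1 hr replicate 2 against 711.7 to 1817.2 on the others, of which Ttr alone gave 2964.6 (120.9 to 309.0 on the others). Pituitary markers summed to 907.0 on 2 hr replicate 2 and 514.3 on 1 hr replicate 2, against 229.3 to 286.5. At most 70 values were identical in any pair of arrays, so all 8 counted as separate samples.

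In whole brain the glutathione transferases had the largest share of probe sets above background of the 5 families, and P450 probe sets had a smaller share than the array as a whole. Background was taken as a floor at an intensity of 9.18, the 20th percentile of all values. Of the 141 member probe sets 70 (49.6%) lay above it on all 8 arrays, against 64.4% of all 8740 probe sets, and 13 lay above it on no array. By family, 22 of 25 Gst probe sets (88%) lay above the floor on all 8 arrays, 36 of 79 Cyp (45.6%), 2 of 5 Ephx (40%), 6 of 18 Sult (33.3%) and 4 of 14 Ugt (28.6%). Counted by gene, 27 of 48 Cyp, 11 of 12 Gst, 4 of 10 Ugt, 5 of 9 Sult and both Ephx genes had at least 1 such probe set. On single arrays between 88 and 113 of the 141 lay above it, fewest on control replicate 1 and most on 1 hr replicate 1. The control arrays had 88, 93 and 105, the 1 hr arrays 113 and 94, and the 2 hr arrays 94, 97 and 100, so the groups overlapped.

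A stricter background, chosen after the values were seen, was the brightest of 15 antisense control probe sets on the same array, which read 56.1 to 125.4. Above it on all 8 arrays lay 20 of the 141 probe sets (14.2%), against 22.3% of all probe sets. They were 14 Gst probe sets (56% of that family), 2 Ugt, 2 Sult, 1 Ephx and 1 of the 79 Cyp probe sets (1.27%). The 13 genes were Cyp2d4, Ephx2, Gsta1, Gstm1, Gstm2, Gstm5, Gstm7, Gsto1, Gstp1, Sult1a1, Sult5a1, Ugt2b and Ugt8.

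**Figure D1:**
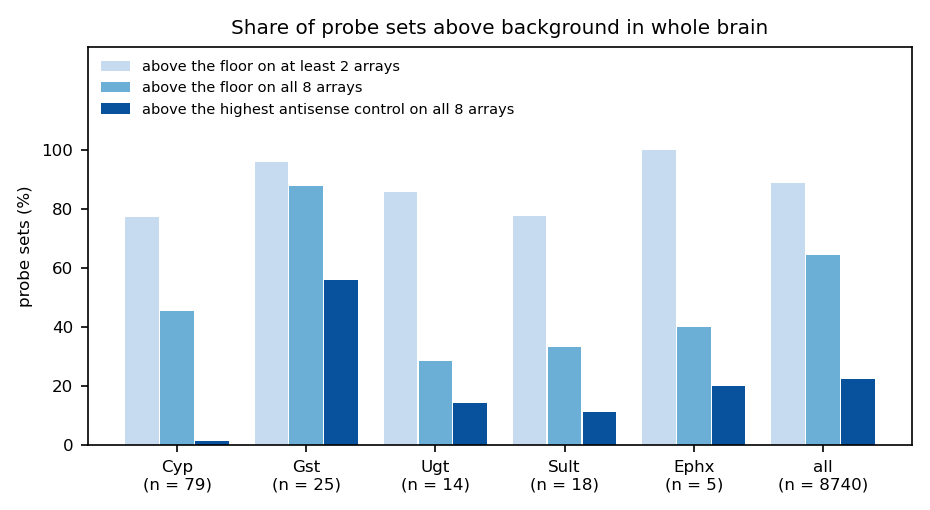
Share of probe sets above background, in percent, for the 5 families and for all probe sets that are not controls; the number of probe sets is under each family, and the 3 bars are 3 definitions of background. Gst has 88% above the floor on all 8 arrays and 56% above the antisense controls, Cyp 45.6% and 1.27%, and all probe sets 64.4% and 22.3%.

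Promoters are shown for 4 genes because they span the levels seen in brain: the bright Gstp1, the myelin lipid enzyme Ugt8, Cyp2e1, and Cyp2c12, a liver P450 whose probe sets stayed below the floor on every array. The sequences are those of RefSeq (GRCr8), 250 bases before to 50 bases after the annotated start, 5′ to 3′ on the gene's strand. Capitals mark the GC box GGGCGG and the TATA motif TATAA, each searched on both strands, so that overlapping matches form one capital run. Gstp1 lies at chr1:210769656-210769955 (minus strand), Ugt8 at chr2:217007118-217007417 (minus), Cyp2e1 at chr1:205269717-205270016 (plus) and Cyp2c12 at chr1:248676985-248677284 (minus).
Gstp1: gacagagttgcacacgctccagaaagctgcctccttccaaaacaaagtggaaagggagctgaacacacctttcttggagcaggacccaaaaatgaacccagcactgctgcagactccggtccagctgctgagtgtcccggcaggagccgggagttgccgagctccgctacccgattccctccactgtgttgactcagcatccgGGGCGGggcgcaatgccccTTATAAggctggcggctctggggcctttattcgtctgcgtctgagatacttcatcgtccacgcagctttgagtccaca
Ugt8: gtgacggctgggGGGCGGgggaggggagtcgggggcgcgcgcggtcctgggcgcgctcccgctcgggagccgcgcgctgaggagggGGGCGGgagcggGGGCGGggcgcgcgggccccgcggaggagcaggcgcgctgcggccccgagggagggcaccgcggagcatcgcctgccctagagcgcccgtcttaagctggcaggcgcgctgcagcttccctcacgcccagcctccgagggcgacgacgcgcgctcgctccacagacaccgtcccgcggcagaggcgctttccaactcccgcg
Cyp2e1: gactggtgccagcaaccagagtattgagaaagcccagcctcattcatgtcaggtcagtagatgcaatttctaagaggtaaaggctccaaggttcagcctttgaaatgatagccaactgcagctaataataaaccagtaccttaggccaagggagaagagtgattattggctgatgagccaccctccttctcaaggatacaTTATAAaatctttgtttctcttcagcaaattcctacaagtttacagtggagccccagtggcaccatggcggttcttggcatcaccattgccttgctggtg
Cyp2c12: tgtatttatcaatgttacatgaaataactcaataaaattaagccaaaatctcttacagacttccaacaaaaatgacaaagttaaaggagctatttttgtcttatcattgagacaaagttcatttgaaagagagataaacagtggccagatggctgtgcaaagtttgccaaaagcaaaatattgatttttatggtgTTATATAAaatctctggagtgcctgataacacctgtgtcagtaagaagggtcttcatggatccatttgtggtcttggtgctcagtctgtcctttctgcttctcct

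The Ugt8 promoter held 47 CpG dinucleotides and 3 GC boxes without a TATA match. The Gstp1 promoter held 15 CpG and both motifs, the Cyp2e1 promoter 1 CpG and only the TATA motif, and the Cyp2c12 promoter no CpG and only the TATA motif. Promoters were found for 63 of the 81 genes. In the 42 whose brightest probe set lay above the floor on all 8 arrays the median CpG number was 4, a GC box was present in 38.1% and TATAA in 47.6%. In the other 21 the median was 1, a GC box was present in 4.76% and TATAA in 71.4%. Among all 27457 promoters of the same length the median was 7, with 34.9% and 26.1%. These are descriptions of letters in a fixed window and were not tested.

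Among the glutathione transferases the brightest probe sets belonged to the pi, mu, alpha and omega classes. Probe sets bind with different strength, so their order is one of intensity and not of transcript number. Gstp1 (rc_AI012589_s_at), the pi-class enzyme, read 1226.9, 996.3 and 1500.2 in controls, 1358.3 and 1205.3 at 1 hr, and 569.6, 1013.6 and 1160.8 at 2 hr. Its lowest value was 2 hr replicate 1, and the control and 2 hr groups overlapped. Gstm1 (J02810mRNA_s_at), of the mu class, read 1535.4, 1204.6 and 482.8 in controls, 1059.0 and 1186.2 at 1 hr, and 969.3, 1467.6 and 1225.3 at 2 hr. Control replicate 3 was the lowest of the 8 arrays and the groups overlapped. Gstm7 (E01415cds_s_at), also mu class, ranged from 691.5 to 1389.0. Gsta1 (X78848cds_f_at), of the alpha class, ranged from 281.9 to 1041.8, on a probe set whose suffix marks a sequence family. Gsto1 (AB008807_g_at), the omega-class enzyme, ranged from 332.0 to 1896.5 and Gstm5 (U86635_at) from 345.8 to 1717.4, both highest on control replicate 3. On the log2 scale the means over all 8 arrays were 10.09 for Gstp1 and Gstm1, 9.82 for Gstm7, 9.41 for Gsto1, 9.21 for Gsta1 and 9.16 for Gstm5. Each of these 6 stood between the 92.4th and the 95.6th percentile of all probe sets.

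Cyp2d4, a P450 of the 2D family known from rat brain, was the brightest P450. Its probe set rc_AA997886_s_at read 674.3, 422.5 and 490.3 in controls, 585.0 and 484.7 at 1 hr, and 595.3, 875.2 and 663.5 at 2 hr. The mean log2 intensity was 9.02 ± 0.34 (SD, n = 3) in controls and 9.45 ± 0.29 (SD, n = 3) at 2 hr, and these groups overlapped, while all 2 hr arrays lay above both 1 hr arrays. A second probe set, U48220_at, was dimmer, from 14.6 on control replicate 3 to 220.1 on 2 hr replicate 2. The next P450s were well below it in intensity. Cyp2a1 (M33312cds_s_at), a liver testosterone hydroxylase, ranged from 91.5 to 322.7, and Cyp3a23-3a1 (L24207_i_at), an inducible steroid-hydroxylating P450, from 88.2 to 185.4. Cyp4a8 (M37828_at) and Cyp4a1 (X07259cds_s_at), fatty acid hydroxylases, ranged from 74.8 to 140.5 and from 33.5 to 120.2, and Cyp2b15 (D17349cds_f_at) from 49.8 to 131.7. Those 5 probe sets fell below the brightest antisense control on at least 1 array.

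The other families had few bright genes. Ugt8 (rc_AI228110_s_at), which makes the galactolipid of myelin, read 208.1, 362.7 and 126.9 in controls, 282.2 and 191.8 at 1 hr, and 341.3, 139.1 and 160.3 at 2 hr. All 3 groups overlapped. Its second probe set, U07683_at, read only 0.3 to 18.6. Ugt2b (M74439mRNA_i_at), of a family of liver steroid glucuronosyltransferases, read 153.9 to 269.0 on a probe set with the suffix i. Its other probe sets, rc_AI169708_s_at and X03478cds_f_at, reached at most 23.0 and 9.5. The next Ugt genes, Ugt2b7 at 16.1 to 37.0 and Ugt2b1 at 11.6 to 48.0, were close to background. Sult5a1 (rc_AA800881_at) varied little, from 187.9 to 279.5. Sult1a1 (L19998_g_at), the phenol sulfotransferase, read 187.8, 181.4 and 342.8 in controls, 160.3 and 168.3 at 1 hr, and 356.1, 303.5 and 141.9 at 2 hr. High and low arrays occurred in both the control and the 2 hr group. Sult2a2 (rc_AA945589_at), of the hydroxysteroid sulfotransferases, ranged from 50.4 to 97.9 and Sult1d1 (U32372_at) from 19.3 to 67.9. Ephx2 (rc_AI104882_s_at), the soluble hydrolase of arachidonic acid epoxides, ranged from 137.9 to 314.3 and Ephx1 (M26125_at), the microsomal enzyme, from 36.2 to 190.7. The 3 other Ephx2 probe sets were dimmer, with no reading above 72.3.

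**Figure D2:**
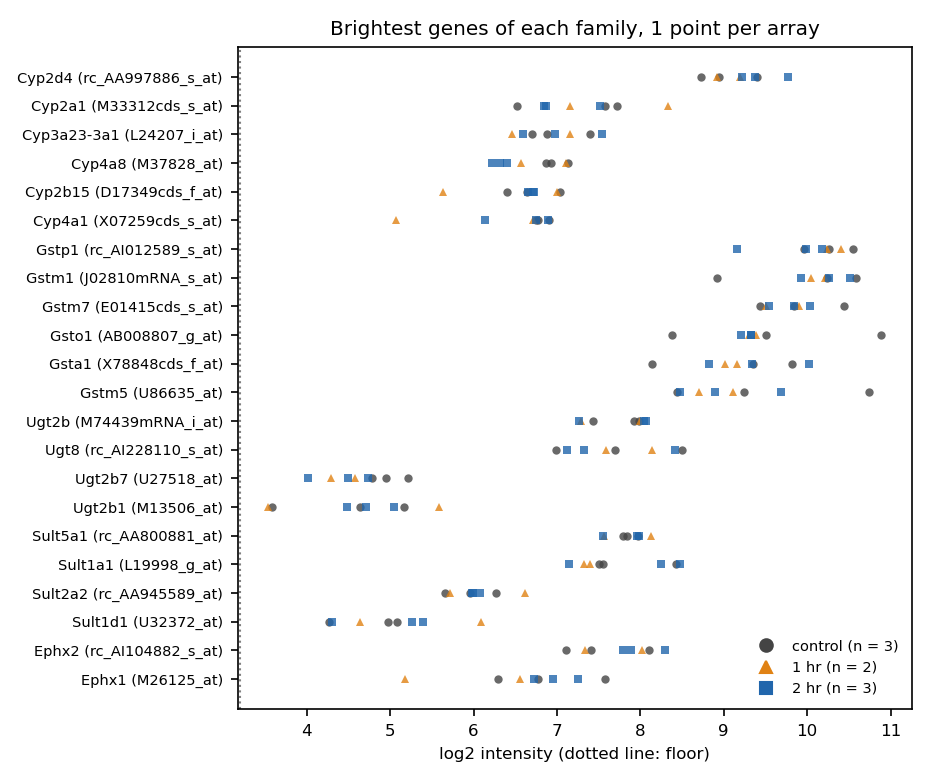
Log2 intensity of the brightest genes of each family (horizontal axis), 1 point per array, coloured by group; the dotted line is the floor. The Gst probe sets and Cyp2d4 average 9.16 to 10.09, the next P450s 6.5 to 7.32, and the exposed arrays lie clear of the controls at 2 hr for Cyp4a8 and Ugt2b7 and at 1 hr for Cyp4a1, Ugt2b7 and Sult1a1, each time below them.

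Several probe sets of one gene did not always track each other. In 24 pairs of probe sets of the same gene that both lay above the floor on all 8 arrays, over 18 genes, the correlation over the 8 arrays ranged from -0.33 to 0.96 with a median of 0.56, and 13 pairs exceeded 0.5. Without control replicate 3 the range was -0.08 to 0.89, the median 0.48 and the number over 0.5 was 11. The lowest pair, of Cyp2c23, read -0.33 with that array and 0.54 without it. Among bright pairs Gstm5 read 0.96 and 0.87 without that array, Sult1a1 0.92 and 0.89, Gsto1 0.93 and 0.69, and the Gstm1 pairs 0.88 to 0.91 and 0.53 to 0.68. The probe sets of Gsto1, of Gstm5 and of Sult1a1 carry the same sequence name within each gene, and all pairs share the same arrays. Of the 141 probe sets 61 had the suffix s, 17 f, 10 g, 5 i and 1 r, which on this kind of array mark probes shared among related transcripts or chosen with relaxed rules. Members of the Cyp2, Cyp3a, Gsta, Ugt2b and Sult2a groups can therefore share signal, and a value is that of the probe set named.

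Cyp2e1 lay above the floor on all 8 arrays on 2 of its 3 probe sets, and neither of these passed the test in any comparison. Their mean log2 intensities of 6.46 and 5.83 stood at the 66.4th and 56.5th percentile of all probe sets. The brighter, S48325_s_at, read 92.1, 71.9 and 96.5 in controls, 120.4 and 79.4 at 1 hr, and 82.9, 93.8 and 76.4 at 2 hr. The second, M20131cds_s_at, read 54.4, 67.4 and 59.4 in controls, 53.3 and 35.9 at 1 hr, and 74.4, 99.7 and 34.8 at 2 hr. Every group overlapped every other on the first, and on the second the 1 hr arrays lay below the controls. The third, AF056333_s_at, read 2.3 to 6.3 on 7 arrays and 24.8 on 1 hr replicate 1, so it was below the floor except there and was not tested. S48325_s_at exceeded the brightest antisense control on 5 of 8 arrays and M20131cds_s_at on 2. The correlation between these 2 probe sets over the 8 arrays was 0.21.

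On S48325_s_at the log2 mean was 6.43 ± 0.23 (SD, n = 3) in controls, 6.61 ± 0.42 (SD, n = 2) at 1 hr and 6.39 ± 0.15 (SD, n = 3) at 2 hr. The log2 change at 2 hr was -0.04 with a standard error (SE) of 0.31 and a 95% interval of -0.73 to 0.66 (limma, adjusted p = 1). At 1 hr it was 0.18 with an interval of -0.59 to 0.96 (limma, adjusted p = 1). In folds these intervals ran from 0.6 to 1.58 at 2 hr and from 0.66 to 1.94 at 1 hr, so larger changes in either direction fell outside them. M20131cds_s_at read 0.08 at 2 hr and -0.46 at 1 hr, with intervals of -0.93 to 1.09 and -1.59 to 0.67. The sign of these small changes was not stable: on S48325_s_at the 2 hr change was 0.05 without control replicate 3 and the 1 hr change -0.12 without 1 hr replicate 1.

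**Figure D3:**
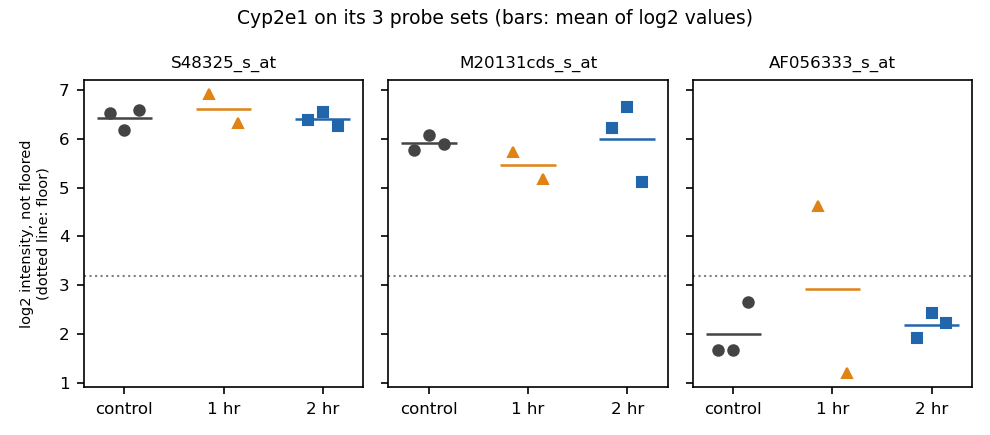
Log2 intensity of Cyp2e1 on its 3 probe sets, 1 point per array, with a bar at each group's mean; values are not floored and the dotted line is the floor. S48325_s_at and M20131cds_s_at lie above the floor on all 8 arrays with overlapping control and 2 hr groups, and AF056333_s_at lies below it except on 1 hr replicate 1.

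After 2 hr of isoflurane no P450 or conjugation gene passed the test. Of the 141 probe sets 116 lay above the floor on at least 2 arrays and were tested, within a fit of 7770 probe sets. None of the 116 had an adjusted p under 0.05 (limma, Benjamini-Hochberg over 7770), and neither did any of the 7770 (0%). At an unadjusted p under 0.05 there were 2 of 116, against 137 of 7770 (1.76%). The control and 2 hr arrays did not overlap for 7 of 116 (6.03%, against 5.44% of all). Of these 1 was higher (background 2.9%) and 6 were lower (background 2.55%). The median log2 change was 0.0 over the 116, with 60 higher and 56 lower, and 0.02 over all 7770. Family medians were 0.04 for 61 Cyp, -0.07 for 24 Gst, -0.17 for 12 Ugt, 0.03 for 14 Sult and 0.14 for 5 Ephx probe sets. The member changes ran from -1.26 to 1.16 with a median SE of 0.447.

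The member with the smallest p at 2 hr was Ugt2b35 (U06274_s_at), a glucuronosyltransferase of the 2B family. It read 25.5, 21.9 and 38.9 in controls, 9.5 and 5.0 at 1 hr, and 4.0, 18.6 and 7.6 at 2 hr. All 5 exposed arrays lay below all 3 controls, and 3 of the 5 were at the floor. Its log2 change was -1.26 at 2 hr (SE 0.385, unadjusted p = 0.00877, limma adjusted p = 1) and -1.58 at 1 hr (SE 0.431, unadjusted p = 0.00468, limma adjusted p = 1). Its other probe set, U06273_i_at, read 0.6 to 5.6 and was not tested. These levels are close to background throughout.

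Cyp4a8 (M37828_at) read 116.5, 140.5 and 121.7 in controls and 74.8, 79.5 and 84.4 at 2 hr, with 137.8 and 94.9 at 1 hr. The 2 hr arrays lay below the controls, at a log2 change of -0.66 (95% interval -1.29 to -0.03, unadjusted p = 0.0408, limma adjusted p = 1). Its second probe set, rc_AA893011_at, read a change of 0.05. Cyp2a2 (J04187_at), a liver P450, read 45.1, 48.5 and 60.0 in controls and 24.4, 31.5 and 40.3 at 2 hr, without overlap, at a change of -0.69 (limma adjusted p = 1). In the other direction Cyp2c22 (M58041_s_at) read a change of 0.86, Cyp2d4 0.44 and Ephx2 0.45, all with overlapping groups and adjusted p = 1 (limma). Cyp2c22 read 0.40 without control replicate 3, Cyp2d4 0.28 without 2 hr replicate 2 and Ephx2 0.24 without control replicate 1.

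After 1 hr the picture was the same in counts. None of the 116 passed (limma, background 0%), 4 had an unadjusted p under 0.05 (3.45%, against 2.69% of all), and the groups did not overlap for 12 (10.3%, against 12.7%), 5 higher (background 7.54%) and 7 lower (background 5.11%). The median log2 change was 0.11 over the members, with 69 higher and 47 lower, and 0.05 over all probe sets. The Cyp median was 0.18, the Gst median 0.0, Ugt -0.03, Sult 0.07 and Ephx 0.14. The size of this upward lean varied with the arrays and probe sets included. Without 1 hr replicate 1, the array with the most probe sets above the floor, the member median was -0.11. It was 0.3 without 1 hr replicate 2, 0.04 without control replicate 2 (0.06 over all probe sets), and 0.1 to 0.13 without any other single array. For the 70 members above the floor on all 8 arrays the median was 0.02, against 0.03 for all such probe sets. With median centring the median was -0.0 for the 116 members and -0.05 for all probe sets, a shift of all probe sets of about 0.1. The cause of the lean was not tested.

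Cyp11a1 (J05156_s_at), which starts steroid synthesis by cleaving the cholesterol side chain, had the smallest p at 1 hr. It read 10.2, 10.1 and 14.0 in controls, 38.1 and 22.5 at 1 hr, and 11.2, 11.6 and 9.4 at 2 hr. Both 1 hr arrays lay above the other 6, while the control and 2 hr arrays overlapped near the floor. The log2 change was 1.37 at 1 hr (95% interval 0.58 to 2.17, unadjusted p = 0.00329, limma adjusted p = 1) and the 2 hr arrays were lower than the 1 hr arrays by -1.45 (unadjusted p = 0.00231, limma adjusted p = 1). It was 0.99 at 1 hr without 1 hr replicate 1.

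Cyp2d3 (AB008424_s_at), another 2D P450, read 67.5, 65.4 and 64.1 in controls, 11.0 and 34.7 at 1 hr, and 41.5, 53.1 and 52.3 at 2 hr. The controls lay above all exposed arrays and 1 hr replicate 1 was the lowest by 1.66 on the log2 scale. The 1 hr change was -1.75 (95% interval -2.93 to -0.56, limma adjusted p = 1) and fell in size to -0.92 without that array. Ephx1 read 109.0, 78.3 and 190.7 in controls, 36.2 and 93.9 at 1 hr, and 123.6, 152.6 and 105.8 at 2 hr. Its 1 hr change was -1.01, and -0.33 without 1 hr replicate 1. Cyp4f5 (U39207_at), a P450 of the 4F family, sat at the floor in all controls and all 2 hr arrays. It lay above the floor on both 1 hr arrays, with a lower reading of 11.9. On the floored scale this was at least 1.5-fold above the controls (limma adjusted p = 1). Cyp4f5 met the filter of at least 2 arrays only through the 1 hr group, so the direction of its change was fixed by the filter. It is nevertheless in the counts above, by unadjusted p and by lack of overlap. Gsta3 (S72506_s_at) entered the count without overlap in the same way. Ugt1a9-ps (S70364_at), labelled a pseudogene by its symbol, read a 1 hr change of 0.84, which turned to -0.11 without 1 hr replicate 1.

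**Figure D4:**
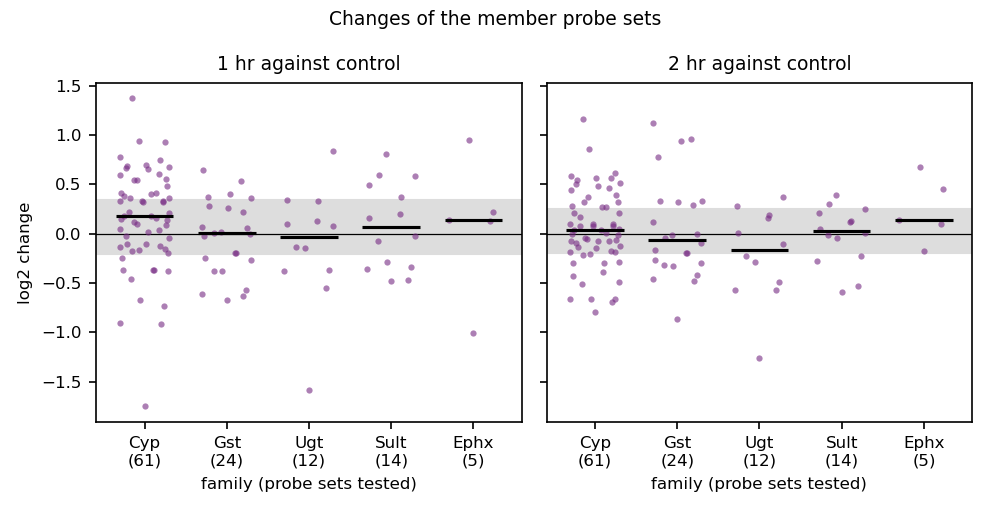
Log2 change against control for each tested member probe set (points) by family, at 1 hr and 2 hr; black bars are family medians and the grey band holds the middle 50% of all 7770 probe sets. Family medians lie between -0.17 and 0.18, inside the band, and the widest single changes are -1.75 for Cyp2d3 at 1 hr and -1.58 for Ugt2b35 at 1 hr.

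When the 1 hr and 2 hr groups were averaged with equal weight, none of the 116 passed (limma, background 0%). There were 3 at an unadjusted p under 0.05 (2.59%, against 2.23%). The 5 exposed arrays lay clear of the 3 controls for 3 of 116 (2.59%, against 1.93%), all lower, which in that direction compares with 1% of all. These 3 were Ugt2b35 at a log2 change of -1.42 (unadjusted p = 0.00238, limma adjusted p = 0.999), Cyp2d3 at -1.09 and Ugt2b7 (U27518_at) at -0.56. Ugt2b7 read 27.4, 31.0 and 37.0 in controls and 16.1 to 26.5 in the exposed arrays. Without 1 hr replicate 1 Cyp2d3 read -0.68. In the higher direction Cyp11a1 read 0.65, Cyp11b2 (D14097cds_s_at), the aldosterone synthase, 0.63, both with overlapping groups. Cyp11b2 read 0.26 without 1 hr replicate 2. These comparisons share the 3 control arrays with those above.

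Between 2 hr and 1 hr none of the 116 passed either (limma, background 0%). At an unadjusted p under 0.05 there were 5 (4.31%, against 2.78%), all of them among the Cyp probe sets, which made up 61 of the 116. Of the 70 members above the floor on all 8 arrays 2 were under it (2.86%, against 1.42% of all such probe sets). Over the 116, 17 did not overlap (14.7%, against 13.8%), 7 higher (background 5.98%) and 10 lower (background 7.82%). The median was -0.05 for the members and -0.03 for all probe sets. Cyp2c22, a P450 of the 2C family, read 7.8 and 4.9 at 1 hr, both under the floor, and 29.9, 20.3 and 50.9 at 2 hr, at least 3.42-fold higher (unadjusted p = 0.013, limma adjusted p = 1). Its controls read 32.4, 17.4 and 7.8 and overlapped both groups. Cyp2d3 read a change of 1.32 and Ephx1 1.11, and without 1 hr replicate 1 these were 0.49 and 0.42. Cyp4f5 was lower at 2 hr by at least 1.5-fold, a direction fixed by the filter, which it met only through the 1 hr arrays. It and Gsta3 (S72506_s_at), for which the same holds, are in the counts of this comparison. Ugt1a5 (D38069exon_s_at) read -0.82, with -0.51 without 1 hr replicate 1.

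Enzymes of steroid and sterol metabolism were described whatever their values. Cyp7b1 (U36992_at), which hydroxylates neurosteroids and oxysterols, lay above the floor on all 8 arrays and above the brightest antisense control on 3. It read 101.9, 90.9 and 63.3 in controls, 81.1 and 65.9 at 1 hr, and 78.9, 62.8 and 81.6 at 2 hr. The groups overlapped and the 2 hr change was -0.18 (95% interval -0.92 to 0.56, limma adjusted p = 1). Cyp27a1 (M38566mRNA_s_at), the mitochondrial sterol 27-hydroxylase, ranged from 35.7 to 67.8, with a 2 hr change of 0.21 (interval -0.64 to 1.07), and -0.3 on its second probe set. Cyp21a1 (U56853_s_at), the 21-hydroxylase, ranged from 17.6 to 54.3. Cyp19a1 (M33986mRNA_at), the aromatase that makes oestrogen, read 37.5, 32.4 and 7.0 in controls, 19.9 and 3.8 at 1 hr, and 8.4, 29.2 and 37.1 at 2 hr. Each group held 1 array below the floor, and both 1 hr arrays lay below the 4 highest, which were controls and 2 hr arrays. Cyp17a1 (M21208mRNA_s_at) read 2.7 to 9.8 and Cyp11b2 3.4 to 25.8, both near the floor. Sult2a1 (D14987_f_at), the sulfotransferase of dehydroepiandrosterone, ranged from 4.0 to 36.2. Sult1a1 (L19998_g_at) had a 2 hr change of 0.13 and a 1 hr change of -0.47, with all 1 hr arrays below the controls. On its second probe set, L19998_at, the changes were 0.3 and -0.48, and the 1 hr arrays overlapped the controls. Cyp46a1, Cyp11b1, Sult4a1 and Sult1e1 were not analysed here as single-gene members. The Sult1e1 values are given below with the probe sets of several symbol entries.

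The partner genes of these enzymes were also without calls. Of 57 listed genes (electron donors, receptors, glutathione and sulfate supply, other phase I and II enzymes and transporters) 41 were measured, 35 lay above the floor on all 8 arrays and 39 were tested. None passed in any comparison (limma). At an unadjusted p under 0.05 there was 1 of 39 at 1 hr (2.69% of all probe sets) and 1 for any exposure (2.23% of all), shares near the background, and 0 at 2 hr and for 2 hr against 1 hr. The median change was -0.03 at 2 hr, with 17 higher and 22 lower, and -0.01 at 1 hr, with 18 higher and 21 lower. The gene with an unadjusted p under 0.05 was Papss2 (rc_AA893244_at), which makes the sulfate donor that sulfotransferases use. It read 13.9, 17.2 and 13.9 in controls, 67.6 and 24.2 at 1 hr, and 44.1, 29.9 and 20.5 at 2 hr. All 5 exposed arrays lay above the controls, at a change of 1.44 at 1 hr, 1.01 at 2 hr and 1.22 for any exposure (unadjusted p = 0.0215, limma adjusted p = 0.999). Without 1 hr replicate 1 its 1 hr change was 0.70. The steroid sulfatase Sts (U37138_at) read a 2 hr change of 0.80, and 0.31 without control replicate 3. Aldh3a1 read a 1 hr change of 0.83, and 0.31 without 1 hr replicate 1. At 2 hr against 1 hr Nqo1 read 0.62, and 0.31 without 1 hr replicate 2, and Fmo1 read 0.71. Por (M10068mRNA_s_at), the electron donor of microsomal P450s, ranged from 308.7 to 652.7 and the receptor Ahr (AF082125_s_at) from 14.8 to 22.6.

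Control replicate 3 stood apart from the other controls for several glutathione transferases. On control replicate 3, 5 of 116 probe sets were highest by more than 1 on the log2 scale (4.31%, against 0.888% of all probe sets) and 6 were lowest by as much (5.17%, against 3.77%). On the other 7 arrays such members numbered 0 to 3 in each direction. The 5 were both probe sets of Gsto1, both of Gstm5 and 1 of Gsta4. The 6 were all 3 of Gstm1 and 1 each of Gstk1, Cyp2d4 and Cyp4f1. Gsto1 (AB008807_g_at) read 1896.5 on that array against 332.0 and 726.7 on the other controls and 588.8 to 667.8 on the exposed arrays. Gstm5 (U86635_at) read 1717.4 against 608.0 and 345.8 on the other controls. Gstm1 (X04229cds_s_at) read 303.9 against 1273.7 and 723.5. Gstk1, a mitochondrial and peroxisomal transferase, was among the 6 through rc_AI105137_s_at, at 27.4 against 88.0 and 90.9 on the other controls. Its brighter probe set, S83436_i_at, was not among the 6. It read 43.5 against 467.4 and 278.9 but was nearly as low on 1 hr replicate 1 (50.4). Members of the same enzyme class thus stood on opposite sides, Gstm5 high and Gstm1 low.

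These genes were chosen after their values were seen, and that array moved their changes. At 2 hr Gsto1 read -0.30 with control replicate 3 and 0.35 without it, and Gstm5 -0.46 and 0.18. Gstm1 read 0.94 on X04229cds_s_at and 0.39 without it, and 0.32 and -0.18 on its brightest probe set. Gstk1 (S83436_i_at) read 1.12 and 0.10. Cyp2d4 read 1.16 and 0.22 on U48220_at and 0.44 and 0.39 on its brightest probe set. None passed with or without that array (limma, adjusted p = 1 at 2 hr in both). On the same array the neuron sum was lowest (1401.1), as were the endothelial sum, at 437.0 against 855.2 to 1508.6, and the choroid plexus sum (711.7). Single markers differed. Slc2a1 was lowest there (273.9), but endothelial Flt1 (111.9) and neuronal Gad1 (337.0) were not, and choroid plexus Kl was highest (50.3). The hepatocyte sum was highest, at 483.6 against 316.2 to 403.4, with Apoc3 highest (193.4) and Fgb lowest (2.2). The sum of the 2 blood markers was also highest, at 370.9 against 79.4 to 280.5, with Hbb highest (267.1) and Alas2 (103.8) not. The astrocyte sum, 6430.6, lay within the range of the others (3250.2 to 7215.6), but its members split. Slc1a3 was lowest there, at 559.2 against 966.8 to 2181.3, and S100b highest, at 5665.8 against 1551.7 to 5415.1. The part of any of these markers in the result was not tested.

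**Figure D5:**
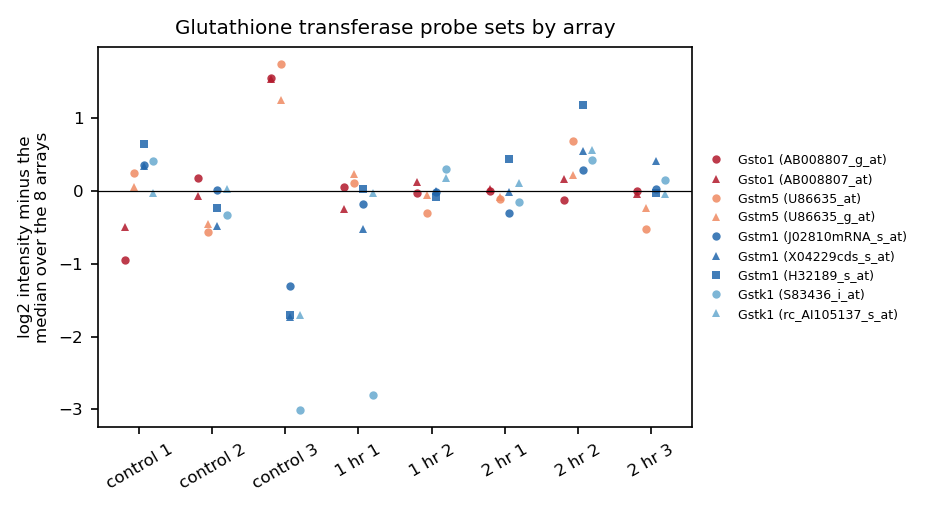
Log2 intensity of 9 probe sets of Gsto1, Gstm5, Gstm1 and Gstk1 on each array, minus the probe set's median over the 8 arrays; each marker is 1 probe set and the 4 genes are set slightly apart. On control replicate 3 the Gsto1 and Gstm5 probe sets lie above the other arrays by more than 1 and the Gstm1 probe sets below them, and S83436_i_at of Gstk1 is also low on 1 hr replicate 1 (50.4).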

How the data were processed

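Each deposited value is a linear intensity of 1 probe set on 1 array. The authors' software and scaling steps were not given in the sources used here. Trimmed means were nearly equal across arrays (150.17 to 150.32), and nothing was rescaled. Tests did not include the 59 control probe sets. Intensities were floored at an intensity of 9.18 (3.2 on the log2 scale), log2 was taken, and probe sets above the floor on at least 2 arrays were tested (7770 of 8740, of the members 116 of 141). The floor understates changes of dim genes.

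Symbols came from the platform's annotation. All 141 members matched the RefSeq table (GRCr8) by gene number with the same symbol. Of all probe sets 7006 had 1 symbol, 308 several and 1426 none. The 34 family probe sets with several symbol entries were not members, among them S76489_s_at and M86758_at, which repeat the symbol Sult1e1.

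limma 3.58.1 in R 4.3.3 (lmFit, contrasts.fit, eBayes with an intensity trend) was fitted on all 8 arrays with 1 mean per group. P-values were two-sided and adjusted over 7770 probe sets (Benjamini-Hochberg, threshold 0.05). The steps were also run on simulated arrays with independent noise, and no result here rests on that run. A gene with several probe sets is named by its brightest. The named genes were Cyp2e1, the brightest of each family (6 Cyp, 6 Gst, 4 Ugt, 4 Sult, and the 2 Ephx), steroid and sterol enzymes, and per comparison the 3 members with the smallest p in each direction and 2 partner genes. Genes that stand apart on control replicate 3 are outside that rule. The members, lists and rules were chosen with earlier results of these data known.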

Additional observations from a re-analysis of the deposited data

How the results depend on the processing

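The scaling was changed to quantile normalization or median centring, the floor to the 5th or the 40th percentile or a pseudocount, and the filter to none or a strict one. Further alternatives were blocks, fits on the compared groups alone, and each array left out, where a lone 1 hr array was assumed to vary like the others. Chosen after seeing the data were the antisense background and leaving out the 3 arrays of highest single intensities (control replicate 3, 1 hr replicate 1, 2 hr replicate 3).

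No member passed under any alternative run (limma). Over all probe sets the count was 0 except with no filter, which gave 4 at 1 hr and 4 between 1 hr and 2 hr. The share of member probe sets above background was 80.1% with the 5th percentile, 30.5% with the 40th, 82.3% when 2 arrays sufficed and 14.2% with the antisense controls, and 49.6% to 51.8% with 1 array left out.

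For Cyp2e1 the ranges with 1 array left out, which cross 0, were -0.17 to 0.05 at 2 hr, -0.12 to 0.48 at 1 hr, -0.08 to 0.22 for any exposure and -0.52 to 0.08 for 2 hr against 1 hr. Without the 3 arrays of highest single intensities it read 0.12, -0.04 and 0.15 at 2 hr, at 1 hr and for 2 hr against 1 hr, and with median centring -0.02 for any exposure. Of the 24 named changes 22 kept their sign in every alternative that gave a value (442 values in all). Dim genes such as Cyp4f5 gave none where they missed the filter. Ugt1a9-ps at 1 hr ranged from -0.11 to 1.8 with 1 array left out and was -0.17 without the 3 arrays, where Ephx1 at 1 hr was 0.02. The cause was not tested.

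The replicate numbers of the titles name no shared animal or batch. Between samples of different groups, deviations from the group mean correlated at -0.331 to 0.286 where the number was the same. Where it differed they correlated at -0.362 to 0.397. With 2 arrays at 1 hr these deviate by equal and opposite amounts, which fixes part of the values, so pairing cannot be decided from them. With the replicate block no member passed and 0 of 7770 probe sets did in each comparison.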

Other observations

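Most of the 34 family probe sets with several symbol entries add values that cannot be given to 1 gene. The exceptions, S76489_s_at and M86758_at, repeat the symbol Sult1e1 and read 11.0 to 53.2 and 0.6 to 14.9. Of the 34 probe sets 15 (44.1%, against 64.4% of all probe sets) lay above the floor on all 8 arrays. Above the brightest antisense control on all 8 lay 2 of them, against 22.3% of all probe sets. The brighter, J05132_s_at, stands for the shared part of the Ugt1a gene cluster, which glucuronidates bilirubin and phenols, and read 144.6 to 254.3. It read 205.0, 144.6 and 188.3 in controls, 146.0 and 203.2 at 1 hr, and 185.4, 254.3 and 221.2 at 2 hr, with overlapping groups. The other, K00996mRNA_s_at of Cyp2b1 and Cyp2b2, the phenobarbital-inducible liver P450s, read 113.7 to 237.3. A probe set shared by Cyp11b1 and Cyp11b2, D00568_s_at, ranged from 15.4 on control replicate 3 to 149.3 on control replicate 2. Of the 30 that were tested none passed in any comparison (limma, background 0%). At an unadjusted p under 0.05 there were 0 of 30 at 2 hr (1.76% of all probe sets) and 0 at 1 hr (2.69% of all). There was 1 of 30 with exposures averaged (2.23% of all) and 1 between 1 hr and 2 hr (2.78% of all), shares near the background.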
